A study of Mus musculus with 31 samples.

Results

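The F1178L neuroblastomas of the 129B6F1 background were compared by the age of the mouse, 3 late tumors against 3 early tumors, 6 of the 31 tumors in the series. The late tumors, numbers 1, 2 and 38, came from mice of 133 to 134 days, and the early tumors, numbers 37, 4 and 11, from mice of 64 to 98 days. They were chosen by the tumor numbers in the array labels, which link each array to a table of mutation, background, sex, age and array-CGH calls, and no expression value was used. All 6 mice carried the TH-MYCN transgene, in which the tyrosine hydroxylase promoter drives MYCN in sympathoadrenal cells, and a knock-in allele of the Alk receptor with the activating F1178L mutation. The 129B6F1 background is a mixed one with C57Bl6/N mice on one side of the cross. Mutation and background were the same in both age groups while sex was not, with 2 males and 1 female among the late tumors and 1 male and 2 females among the early ones. The study compared 10 MYCN tumors, 10 MYCN/Alk R1279Q tumors and 11 MYCN/Alk F1178L tumors, and RNA of each tumor was hybridized to 1 Affymetrix mouse array. The background of the MYCN tumors was not given. The F1178L tumors of the 129S2 background came from mice younger than those of either side. Mice were killed once a tumor was palpable or the hind limbs were paralysed, so age is the age at which a tumor had become apparent. Tumors 1 and 2 came from males of the same age in mice that often have several primary tumors. Whether they shared a mouse, and the site of each tumor, were not given, and p values that treat them as independent could be too small.

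Neuroblastoma arises from the sympathoadrenal lineage of the neural crest, whose cells become noradrenaline-making sympathetic neurons or the chromaffin cells of the adrenal medulla. MYCN drives growth and cell division in these precursors, and active ALK, a receptor tyrosine kinase, feeds the MAPK and PI3K pathways. Gata3, Hand2 and Ebf family factors hold the sympathoadrenal identity, and the cells release peptides such as VIP, PACAP, galanin and NPY beside noradrenaline.

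Values are log2 GCRMA values as deposited, and a difference is the late mean minus the early mean. Rows above log2 4 in at least 3 of the 6 tumors were tested, 9047 in all. The limit of log2 4 stands for the background, and where the lower mean was under it, the difference is given as at least that obtained with values below it set to it. A whole tumor was measured, so that fewer cells of a type and less RNA per cell cannot be told apart.

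Markers of the labelled tissue were high in all 6 tumors, with Th between 12.58 and 13.54, and the female transcript Xist and the Y-linked Eif2s3y followed the tabled sex in 6 of 6. Tumor 4 stood apart. The first principal component carried 37.4% of the variance over the tested rows, and tumor 4 lay at -59.5 on it while the others lay between -16.4 and 41.7. It was the lowest of the 6 by over log2 1 in 240 rows and the highest by as much in 158, against at most 97 and 70 for any other tumor. Muscle RNA was high in tumors 11 and 38, one of each side: Acta1, skeletal muscle actin, was at 13.18 and 11.48 there and at most at 6.0 in the other tumors, and Mylpf, a fast muscle myosin light chain, was at 10.66 and 9.30 and otherwise at most at 4.06. The fat hormone Adipoq was at 8.21 and 8.63 in the same pair, at 5.01 in tumor 1 and at most at 2.78 in the other 3. Of 9 kidney and 5 erythroid markers measured, 0 passed the filter. Alas2, the first enzyme of heme synthesis in red cells, was nonetheless at 9.29 in tumor 4 and 9.73 in tumor 2 and at most at 2.36 elsewhere, and Slc4a1, the anion exchanger of red cells, was at 8.34 in tumor 2 and 4.13 in tumor 4.

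The arrays labelled tumors 1, 2 and 4 did not match the array-CGH calls listed under their numbers. Arrays 2 and 4 lacked most of the listed changes, and array 1 showed its only listed gain but also changes on chromosomes without a call. For each array the median deviation of the genes of a chromosome from the 9 tumors of the 129S2 background, none of which had a call, was set beside the calls. In tumor 38 the expression profile followed its calls, with chromosome 3 at 0.37 (called gained) and chromosomes 5, 15 and 16 at -0.45, -0.31 and -0.37 (called lost). Tumors 11 and 37, without calls, stayed between -0.09 and 0.12. Tumor 2 had 8 calls, but its array was at -0.04 on chromosome 6 (called gained) and at -0.03 and 0.00 on chromosomes 13 and 16 (called lost). Its chromosomes 3 and 14 were at 0.11 (called gained) and -0.11 (called lost), in the direction of the calls. The array labelled tumor 1 was at 0.28, -0.27 and -0.27 on chromosomes 6, 13 and 16, none of which was called in tumor 1. It was at 0.19 on chromosome 11, its only call. The array labelled tumor 4 was at 0.27 on chromosome 11 and at 0.00 and -0.10 on chromosomes 3 and 17, its called gains.

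Set against gains and losses coded as +1 and -1 over the 19 autosomes, the profile of array 38 had r = 0.98 with its own calls. Array 1 had r = 0.83 with the calls of tumor 2 and 0.30 with its own, array 4 had r = 0.70 with the calls of tumor 1 and -0.11 with its own, and array 2 had r = 0.51 with the calls of tumor 4 and 0.29 with its own. These are descriptions over chromosomes of very different gene number. The sex-linked genes went with the array labels. Array 4 was female by Xist (11.98), whereas tumor 1 is tabled as male. Array 2 was male by Eif2s3y (9.52), whereas tumor 4 is tabled as female. Why calls and profiles differ was not tested. The sides were kept as the labels give them. Since tumors 2 and 4 lie on opposite sides, several results that rest on them are also given without this pair.

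**Figure D1:**
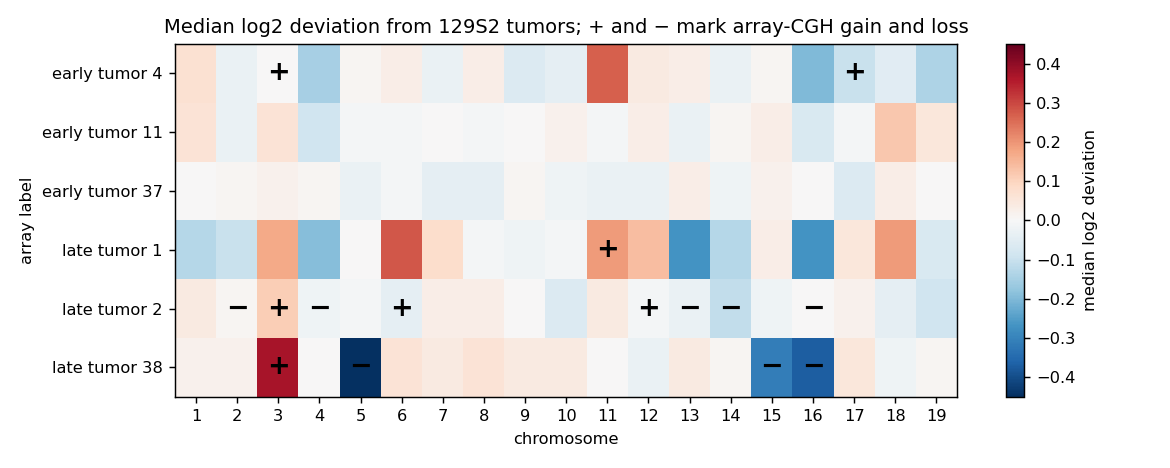
Median log2 deviation of each autosome (x axis) from the mean of the 9 tumors of the 129S2 background in the 6 arrays (y axis), with + and − where array-CGH listed a gain or loss under that tumor number. In tumor 38 all 4 signs sit on the matching color, from -0.45 to 0.37, whereas in tumors 2 and 4 most signs sit on pale fields.

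No gene was called between late and early tumors. With limma, 0 of 9047 rows (0%) had an adjusted p value under 0.05, the smallest being 0.45, and 308 rows (3.40%) had an unadjusted p value under 0.05, 180 of them higher and 128 lower in late tumors. The methods' t-test called 326 rows at the methods' unadjusted threshold, and 0 after Benjamini-Hochberg adjustment. The median difference over all rows was 0.03 and the median half-width of the unadjusted 95% interval of a difference was 0.74. After adjustment over 9047 rows, differences well above 0.74 also went uncalled, such as 1.40 in Marchf11 (limma adjusted p = 0.994). With 3 tumors a side, the lack of calls therefore does not show a lack of change. In 416 rows (4.60%) the 3 late values all lay above the 3 early values, and in 282 rows (3.12%) all below. The higher rows made up 59.6% of these 698, and 79.5% when the arrays were brought to equal medians. Only 5 rows had a gap between the sides of over log2 1, 1 higher and 4 lower. Without tumors 2 and 4 the fit also called 0 rows.

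**Figure D2:**
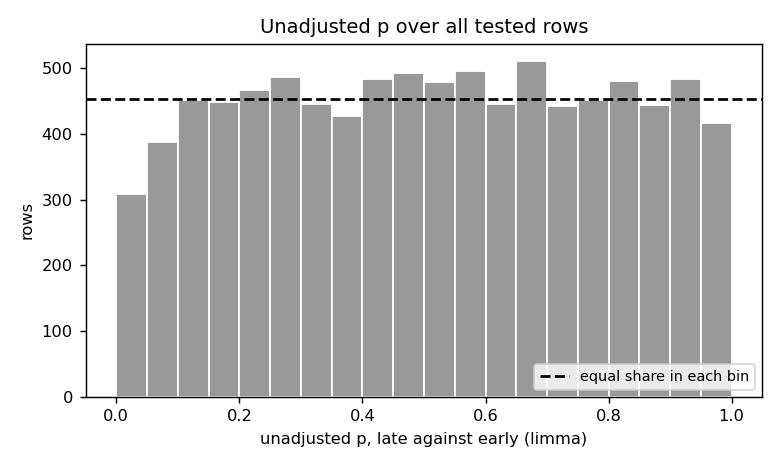
Unadjusted p values (x axis, bins of 0.05) of the 9047 tested rows (y axis, number of rows) for late against early tumors, with a dashed line at an equal share in each bin. The bin nearest 0 holds 308 rows and lies under the line.

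Slpi, which encodes a secreted inhibitor of leukocyte proteases, had the widest gap of all. It was at 2.70, 2.98 and 2.66 in early tumors 4, 11 and 37 and at 5.82, 5.83 and 7.06 in late tumors 1, 2 and 38. The early values lay under the background limit and every late value above it, a difference of at least 2.24 (limma adjusted p = 0.45, unadjusted 4.98e-05). Slpi thus passed the filter through the 3 late tumors only, which fixed its lack of overlap in advance, and its p value is no support. With a filter at log2 6, which drops Slpi, the smallest adjusted p of the limma fit was 0.993. Leaving out any tumor gave fitted differences of 3.05 to 3.66, which rest on early values under the limit and are not exact. In the 4 F1178L tumors of the 129S2 background Slpi ran from 2.58 to 3.39, in 10 MYCN tumors from 2.60 to 3.87, and in 3 R1279Q tumors of 129B6F1 it was at 2.61, 2.64 and 7.84, so 1 tumor outside the late ones reached their level in these groups.

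Among genes whose upper side averaged log2 6 or more, the next 11 with late tumors higher had narrower gaps. In 9 of them the difference lay between 0.81 and 1.48 without passing the test. Marchf11, a membrane-bound ubiquitin ligase, was at 8.20, 8.02 and 8.33 in early tumors 4, 11 and 37 and at 9.21, 9.68 and 9.87 in late tumors 1, 2 and 38. The difference of 1.40 had a 95% interval of 0.80 to 2.0. Pank3, a pantothenate kinase of coenzyme A synthesis, was at 8.54, 8.42 and 9.22 against 10.71, 10.07 and 9.85, a difference of 1.48. Pdp2, the phosphatase that turns on pyruvate dehydrogenase, differed by 1.13, from 5.41 to 5.50 in early tumors and from 6.32 to 7.01 in late tumors. Sin3a, the scaffold of a histone deacetylase corepressor, differed by 0.96, and Gdpd3, a lysophospholipase D, by 1.07. AI662270 (1.42), Niban3 (0.95), Rrnad1 (0.81) and the zinc finger gene Zfp110 (0.92) made up the rest of this group. In Rrnad1 the late values lay close together, with late tumors at 7.63, 7.62 and 7.65 and early tumors at 6.74 to 6.87. It lies on chromosome 3.

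In the remaining 2 genes, Gata3 and Adcyap1, tumor 4 lay far from the other 5. Gata3, a transcription factor that sympathetic neurons need to form and survive, was at 4.96 in tumor 4, at 8.98 and 9.59 in early tumors 11 and 37, and at 10.30, 10.20 and 10.30 in late tumors 1, 2 and 38. The sides did not overlap. The difference was 2.42 with a 95% interval of -0.29 to 5.14, and it was 0.98 without tumor 4 and 1.01 without tumors 2 and 4. Adcyap1, which encodes the peptide PACAP, was at 3.55, 9.06 and 9.82 in tumors 4, 11 and 37 against 10.82, 10.39 and 10.46. Its difference of 3.08 was 1.12 without tumor 4 and 1.2 without tumors 2 and 4.

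Lower in late tumors with the widest gap was Calb1, the calcium buffer calbindin of neurons. It was at 7.47, 5.86 and 6.71 in early tumors 4, 11 and 37 and at 2.72, 3.87 and 4.13 in late tumors 1, 2 and 38. Late tumors were at or near the background, and the difference was at least 2.64 in size (limma unadjusted p = 0.000694). Across the series Calb1 was uneven, from 4.54 to 7.29 in F1178L tumors of 129S2 and from 2.80 to 11.57 in MYCN tumors. Sdc4, the heparan sulfate proteoglycan syndecan 4, was at 6.26, 6.91 and 5.42 against 3.61, 3.82 and 4.22. Popdc3, a cAMP-binding membrane protein of the Popeye family, was at 7.19, 5.72 and 6.37 against 4.37, 4.63 and 4.50. Apoe, the lipid carrier made by macrophages and glia among others, was at 11.24, 12.28 and 11.19 against 9.81, 10.13 and 9.48, so that it was abundant on both sides with a difference of -1.76 (95% interval -2.63 to -0.90).

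The other lower rows included genes known from neurons. Rit2, a small GTPase of neurons, was at 6.57, 5.96 and 5.67 in tumors 4, 11 and 37 and at 2.96, 4.75 and 3.32 in tumors 1, 2 and 38. Synpr, the synaptic vesicle protein synaptoporin, was at 7.18, 6.34 and 6.55 against 2.91, 5.63 and 3.05. In both genes tumor 2 was the late tumor nearest to the early ones. Dpp6, an auxiliary subunit of A-type potassium channels, differed by -1.04, Nyap1, a neuronal adaptor of PI3K, by -0.79, Aatk, a kinase found mostly in neurons, by -1.22, and Tmod1, an actin-capping tropomodulin, by -1.15. Lyz2, the lysozyme of myeloid cells, and a row without a gene name completed the 12 lower rows. Of the 30 axon and synapse genes listed, 27 were tested, with 1 higher and 0 lower without overlap beside 4.60% and 3.12% of all rows, and a median difference of -0.06, beside 0.03 for all rows.

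**Figure D3:**
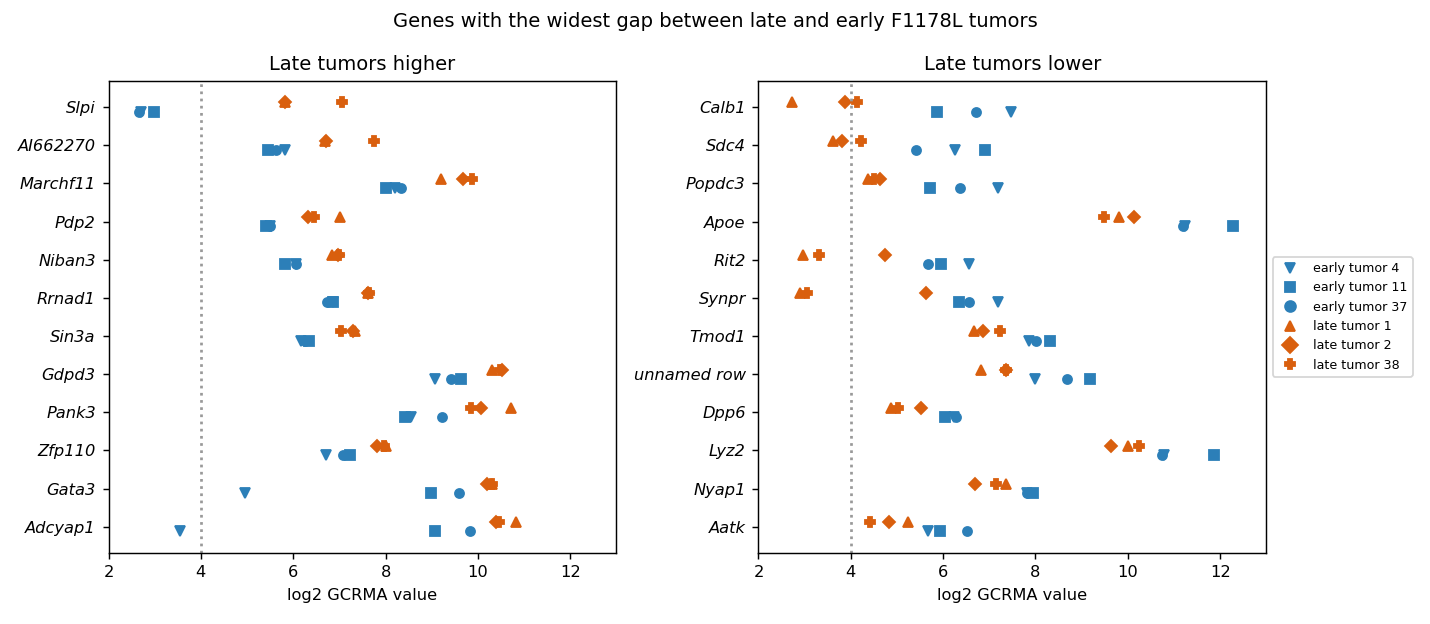
Log2 GCRMA values (x axis) of the 12 rows with the widest gap in each direction (y axis), among rows whose upper side averaged log2 6 or more. Each tumor has its own symbol, blue for early and orange for late, and the background limit of log2 4 is dotted. In Slpi the 3 early tumors lie at 2.66 to 2.98 and the late ones from 5.82 up, and in Gata3 and Adcyap1 tumor 4 lies far to the left of the other 5.

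Of the genes that the study follows in these tumors, 0 were called between the ages. Ret, the receptor of GDNF family ligands, was at 8.48, 8.46 and 9.37 in early tumors 4, 11 and 37 and at 9.27, 8.72 and 8.46 in late tumors 1, 2 and 38. The sides overlapped over most of their range, and the difference of 0.05 had a 95% interval of -0.80 to 0.89, which spans a change in either direction. Th, the first enzyme of catecholamine synthesis, differed by -0.33 (95% interval -0.96 to 0.30), Dbh, which makes noradrenaline, by 0.59 (-0.57 to 1.74), and the vesicular monoamine transporter Slc18a2 by -0.56 (-2.13 to 1.01). The endogenous mouse Mycn was at 7.15, 8.72 and 8.51 in tumors 4, 11 and 37 and at 8.91, 8.35 and 9.68 in tumors 1, 2 and 38, a difference of 0.86 that was 0.37 without tumor 4 and 0.68 without tumors 2 and 4. Alk was at 7.93 in tumor 4 and between 9.37 and 10.01 in the other 5, and its difference of 0.56 was 0.00 without tumor 4 and 0.05 without tumors 2 and 4. The rows do not measure the human transgene as such, and Alk reports both alleles together.

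Vgf, a secreted neuropeptide precursor induced by growth factors, was lower in the late tumors without overlap but by a gap of 0.02 only. It was at 11.53, 9.50 and 9.45 in early tumors 4, 11 and 37 and at 8.82, 9.43 and 6.80 in late tumors 1, 2 and 38. The difference was -1.81 (95% interval -3.79 to 0.17), with tumor 4 the highest and tumor 38 the lowest. It was -1.13 without tumor 4, -1.04 without tumor 38 and -1.67 without tumors 2 and 4. The 4 F1178L tumors of 129S2 lay between 8.77 and 10.20.

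Among the peptides, Vip varied most. It was at 2.49, 7.56 and 9.58 in early tumors 4, 11 and 37 and at 13.64, 8.63 and 10.62 in late tumors 1, 2 and 38. Tumor 4 was at the background, tumor 1 was highest, and late tumor 2 lay under early tumor 37. The difference of 4.42 had a 95% interval of -0.32 to 9.15, and it was 2.39 without tumor 4 and 3.56 without tumors 2 and 4. Gal, galanin, went the other way in late tumors 1 and 38, which were at 3.33 and 2.87, while late tumor 2 was at 7.95, inside the early range of 7.38 to 8.67. Npy was at 13.87 in tumor 4 and at 9.40 and 6.93 in the other early tumors, against 4.61 to 8.25 in late tumors. Its difference of -3.27 was -1.37 without tumor 4 and -2.09 without tumors 2 and 4. Of 10 peptide genes tested, 1 was higher and 1 lower without overlap, beside 4.60% and 3.12% of all rows, and 0 were called. Of the cholinergic markers only Vip and Prima1 were tested, with differences of 4.42 and 0.7. Their median difference of 2.56 was 1.52 without tumor 4 and 2.0 without tumors 2 and 4. With no filter the median of the list was 0.05. The other measured markers did not pass the filter. Among them, Slc18a3 and Slc5a7 were under the background limit in every tumor compared, at 1.93 to 1.99 and 2.05 to 2.32. Tlx3 was above it in tumor 38 only, at 4.16. The median of 2.56 therefore describes Vip and Prima1 and not the list.

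Vip and Adcyap1 were both near the background in tumor 4 and well above it in all the others, early and late. In the 4 F1178L tumors of 129S2 Vip ran from 13.09 to 14.7 and Adcyap1 from 9.22 to 10.76. Both promoters hold the letters TGACGT, the core of the cAMP response element TGACGTCA, and they are shown for this shared stretch, which is in capitals. The windows run from 250 bases before to 50 bases after the start site in RefSeq on GRCm38.p6, at chr10:5638968-5639267 for Vip and chr17:93198767-93199066 for Adcyap1, both on the plus strand, and the latter gene has 2 windows in the table, of which the first is shown.
Vip: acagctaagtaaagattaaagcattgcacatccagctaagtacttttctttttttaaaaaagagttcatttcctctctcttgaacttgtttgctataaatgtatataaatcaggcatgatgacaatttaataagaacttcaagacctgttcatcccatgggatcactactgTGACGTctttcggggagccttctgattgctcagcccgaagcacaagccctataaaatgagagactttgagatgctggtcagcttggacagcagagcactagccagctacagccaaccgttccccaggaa
Adcyap1: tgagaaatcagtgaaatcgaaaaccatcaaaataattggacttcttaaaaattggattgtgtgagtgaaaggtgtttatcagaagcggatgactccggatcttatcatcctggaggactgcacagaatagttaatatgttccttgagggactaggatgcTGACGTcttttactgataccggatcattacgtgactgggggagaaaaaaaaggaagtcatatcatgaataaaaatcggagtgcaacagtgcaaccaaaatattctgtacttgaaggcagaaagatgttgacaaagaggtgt
The match starts at base 172 of the Vip window and at base 160 of the Adcyap1 window. TGACGT or its reverse complement ACGTCA occurs in 7.51% of 32851 such windows, and neither window shown holds the full TGACGTCA. The match is a description of these letters.

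**Figure D4:**
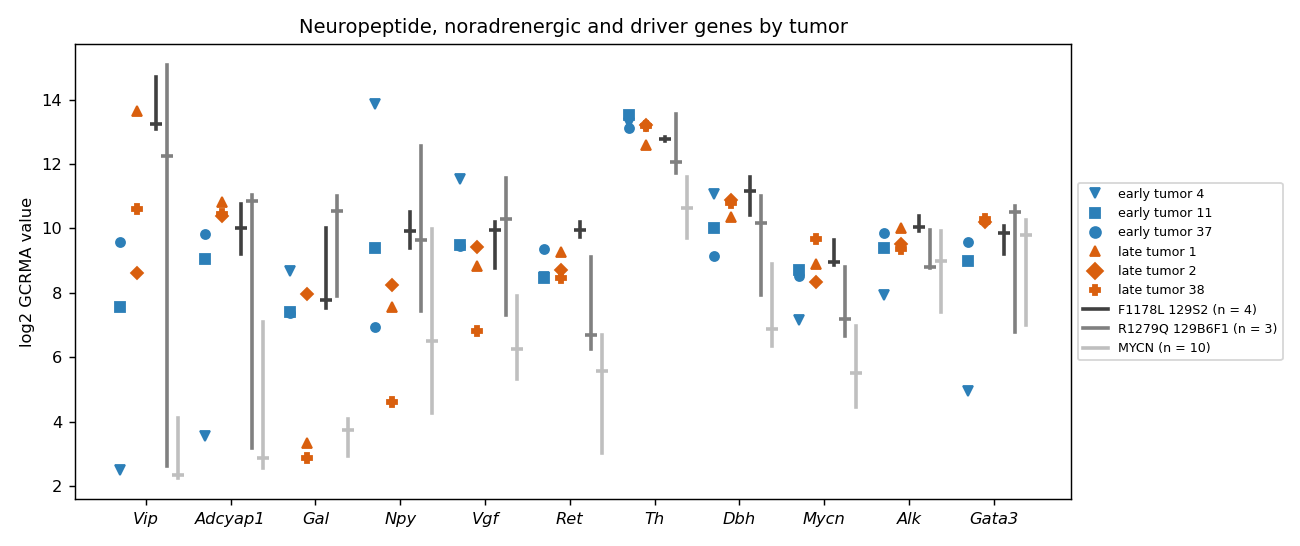
Log2 GCRMA values (y axis) of 11 neuropeptide, noradrenergic, driver and lineage genes (x axis), with a symbol for each of the 6 tumors, blue for early and orange for late, and gray bars from the lowest to the highest tumor with a tick at the median in F1178L tumors of 129S2 (n = 4), R1279Q tumors of 129B6F1 (n = 3) and MYCN tumors (n = 10). Tumor 4 is at the bottom in Vip, Adcyap1 and Gata3 and at the top in Npy, at 13.87, and the Ret, Th and Dbh values of late and early tumors overlap.

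Several sympathoadrenal transcription factors had higher values in late tumors, though 0 were called. Of 16 in the list 12 were tested, 9 had a difference above 0, and 3 were higher and 0 lower without overlap, beside 4.60% of all rows, with a median difference of 0.43 that was 0.11 without tumor 4 and 0.57 without tumors 2 and 4. The 3 were Gata3, Tbx2 and Ebf3. In the 4 F1178L tumors of 129S2 these ran from 9.21 to 10.08, from 6.42 to 8.20 and from 7.21 to 8.61. Tbx2, a T-box repressor of CDK inhibitors, was at 6.54, 5.79 and 6.26 in early tumors 4, 11 and 37 and at 8.0, 6.77 and 9.03 in late tumors 1, 2 and 38. Ebf3 was at 6.12, 6.69 and 6.35 against 7.64, 7.23 and 7.69, and its difference of 1.13 (95% interval 0.52 to 1.74) was 1.0 without tumor 4 and 1.14 without tumors 2 and 4. Sox11, a factor of immature neurons, was at 10.51 to 11.15 in early tumors and at 10.60 to 11.84 in late tumors, which overlap.

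Several chromaffin genes were high in tumor 4. Pnmt, which turns noradrenaline into adrenaline, was at 10.47 in tumor 4 and between 2.03 and 2.19 in the other 5. It passed the limit in 1 tumor only and was not tested. Chga, chromogranin A, was at 12.59 in tumor 4 and between 9.19 and 10.85 in the others, and Slc18a1, the monoamine transporter of chromaffin cells, was at 6.78 in tumor 4 but highest in late tumor 2, at 7.08. Chgb, chromogranin B, set tumor 38 apart, which was at 6.97 while the other 5 lay between 11.32 and 14.31. Others of the list were low in tumor 4 and did not pass the filter: Cox8b, a subunit of cytochrome oxidase, was at 2.62 there, 5.98 in early tumor 11 and 4.88 in late tumor 38, and Htr3a, a serotonin receptor channel, was at 2.16 there and highest in late tumor 1, at 6.46. Of 11 catecholamine and adrenergic genes tested, 0 were without overlap in either direction, beside 4.60% and 3.12% of all rows, and the median difference was -0.33. It was 0.13 without tumor 1, -0.09 without tumor 38 and -0.14 without tumor 4. Cyb561, the cytochrome of the chromaffin granule, had the largest difference of this list at -1.22 (95% interval -2.78 to 0.34).

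Genes of cell division had higher values in late tumors 1 and 38 but not in tumor 2. Of 20 S phase genes tested 18 had a difference above 0, with a median of 0.24, and of 20 mitosis genes 18, with a median of 0.36, but 0 of the 40 were without overlap, beside 4.60% and 3.12% of all rows. The mitosis median was 0.09 without tumor 38, 0.74 without tumor 2 and 0.58 without tumors 2 and 4, and the S phase median was 0.08, 0.33 and 0.36. By tumor, the mitosis genes had a median deviation of 0.29 and 0.58 in tumors 1 and 38 and of -0.45 in tumor 2, below the early tumors at -0.29 to -0.02. Cenpe, a kinetochore motor, was at 7.63, 8.63 and 8.46 in early tumors 4, 11 and 37 and at 9.66, 8.27 and 10.11 in late tumors 1, 2 and 38. Aurka, the mitotic kinase Aurora A, was at 9.39 and 9.23 in tumors 1 and 38 and between 8.33 and 8.45 in the other 4. E2f1, an S phase regulator, differed by 0.77 (limma unadjusted p = 0.0478), and Ccnd1, cyclin D1, by 0.52 (95% interval -0.27 to 1.3).

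A few growth regulators varied from tumor to tumor. Cdkn2a, the locus of the p16 and p19 inhibitors of growth, was at 9.09 in late tumor 1, at 6.21 in early tumor 4 and between 2.18 and 2.78 in the other 4. No other MYCN/Alk tumor of known background, nor any MYCN tumor, was above 5.12. Igf2bp3, an oncofetal RNA-binding protein, was at 7.60 in late tumor 1 and 7.41 in early tumor 37 and at most at 3.42 elsewhere among the 6. H19, an imprinted noncoding RNA, ran from 3.95 to 9.15 in early tumors and was at 12.26, 5.47 and 8.90 in late tumors 1, 2 and 38. Its neighbor Igf2, a fetal growth factor, was at 7.27 in tumor 1 and between 4.03 and 4.67 in the other 5. In the 4 F1178L tumors of 129S2 Igf2bp3 ran from 5.57 to 6.62, H19 from 6.88 to 11.75 and Igf2 from 4.49 to 8.13. Cdkn2a and Igf2bp3 did not pass the filter, and these values are a description chosen after they were seen.

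Macrophage markers had lower values in late tumors, though 0 of them were called. Of 18 in the list 14 were tested, 13 had a difference below 0, and 4 were lower and 0 higher without overlap, beside 3.12% of all rows, with a median difference of -0.49. Lyz2 was at 10.79, 11.86 and 10.74 in early tumors 4, 11 and 37 and at 10.00, 9.64 and 10.25 in late tumors 1, 2 and 38. Cd68, a lysosomal protein of macrophages, was at 6.76, 6.72 and 6.52 against 4.87, 5.36 and 6.20. Tyrobp, the myeloid adaptor DAP12, was at 9.08, 8.92 and 8.28 against 7.64, 8.24 and 8.11, which separates the sides by 0.04 only. In C1qc, a chain of complement C1q, late tumor 38 was at 7.0, above early tumor 11 at 6.90. The list was lowest in tumors 1 and 2, with median deviations of -0.65 and -0.39, while tumor 38 was at 0.12, close to the early tumors at 0.19 to 0.49. The median difference was -0.29 without tumor 1 and -0.62 without tumors 2 and 4.

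Other cell types varied by tumor. Fibroblast and matrix genes had median deviations of 1.38 in late tumor 1, 0.59 in late tumor 38 and -1.60 in late tumor 2, against -0.32 to 0.33 in early tumors, and the median difference of 0.23 was 1.27 without tumors 2 and 4. Col3a1, collagen III, was at 10.57, 6.42 and 10.08 in tumors 1, 2 and 38 and between 7.53 and 9.24 in early tumors. Of the Schwann cell genes, 4 of 17 were tested. Apod was at 10.67 in early tumor 37, 10.20 in late tumor 2 and 9.08 in tumor 4, and at 4.12 and 3.77 in late tumors 1 and 38, and Fabp7, a fatty acid binding protein of glial precursors, was highest in tumor 37 at 9.63. Of the T cell and B cell lists 1 marker each was tested, with differences of -0.94 in Thy1 and 0.27 in H2-Aa, and the other measured markers of both did not pass the filter. Of these, Cd74, H2-Ab1, H2-Eb1 and Igkc were at 6.35, 5.51, 6.43 and 5.21 in late tumor 38, and H2-Eb1 was at 5.69 in early tumor 11.

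Several immediate early and hypoxia genes again set tumor 4 apart. Fos, an immediate early transcription factor, was at 11.62 in tumor 4 and between 6.66 and 7.70 in the other 5, and Atf3 was at 8.06 against 3.15 to 4.37. Adm, the hypoxia-induced peptide adrenomedullin, was at 10.61 in tumor 4 and between 3.01 and 6.05 in the others. Pdk1, a kinase that turns off pyruvate dehydrogenase, was at 9.87 in tumor 4, 8.61 in tumor 2 and at most 7.70 elsewhere. The median difference of the immediate early genes was -0.53 with all 6 tumors and 0.01 without tumor 4, and 0.17 without tumors 2 and 4. For the hypoxia and glycolysis genes it was -0.31, 0.01 and -0.15, and by tumor this list was at 0.49 in tumor 4, 0.25 in tumor 2 and 0.22 in tumor 37. The list of heat shock and stress genes did not set tumor 4 apart, at 0.16 there, 0.27 in tumor 1 and 0.25 in tumor 11. In tumor 4 several chromaffin, immediate early and hypoxia genes were high and Gata3, Vip and Adcyap1 low in the same array. Their part in each other's values was not tested.

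Sterol synthesis genes had higher values in late tumors, with 8 of 9 tested genes above 0 and 0 called, a median of 0.55 and 1 higher and 0 lower without overlap, beside 4.60% and 3.12% of all rows. The median was 0.33 without tumor 11, 0.34 without tumor 1 and 0.88 without tumor 37, and by tumor the list was at -0.11 in late tumor 38, below early tumor 37 at 0.23. That gene was Fdft1, squalene synthase, at 9.52, 9.66 and 9.98 in early tumors 4, 11 and 37 and at 10.92, 10.49 and 10.00 in late tumors 1, 2 and 38. Tumors 4 and 11 were the low ones. In Lss, lanosterol synthase, they were at 6.93 and 6.91 while early tumor 37 was at 8.40, inside the late range of 7.96 to 9.27. Mvd differed by 1.13 and Dhcr7 by 0.82, both with overlap.

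Of the other pathway lists 0 members were called. The median difference was 0.14 for 16 MYC targets and genes of ribosome biogenesis, 0.04 for 10 p53 targets and 0.13 for 9 D cyclins and CDK inhibitors. For 13 imprinted and oncofetal genes it was 0.20, for 9 mesenchymal-state genes 0.15 and for 5 Alk and Ret receptors and ligands 0.05. It was -0.19 for 6 ERK targets, -0.09 for 16 genes of oxidative phosphorylation, -0.03 for 7 ribosomal protein genes and 0.12 for 9 heat shock genes. It was -0.07 for 6 interferon response genes, or 0.41 without tumor 1, and -0.13 for 6 genes of MHC class I. The 3 sex-linked genes tested had a median of 1.08, with more males among the late tumors.

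**Figure D5:**
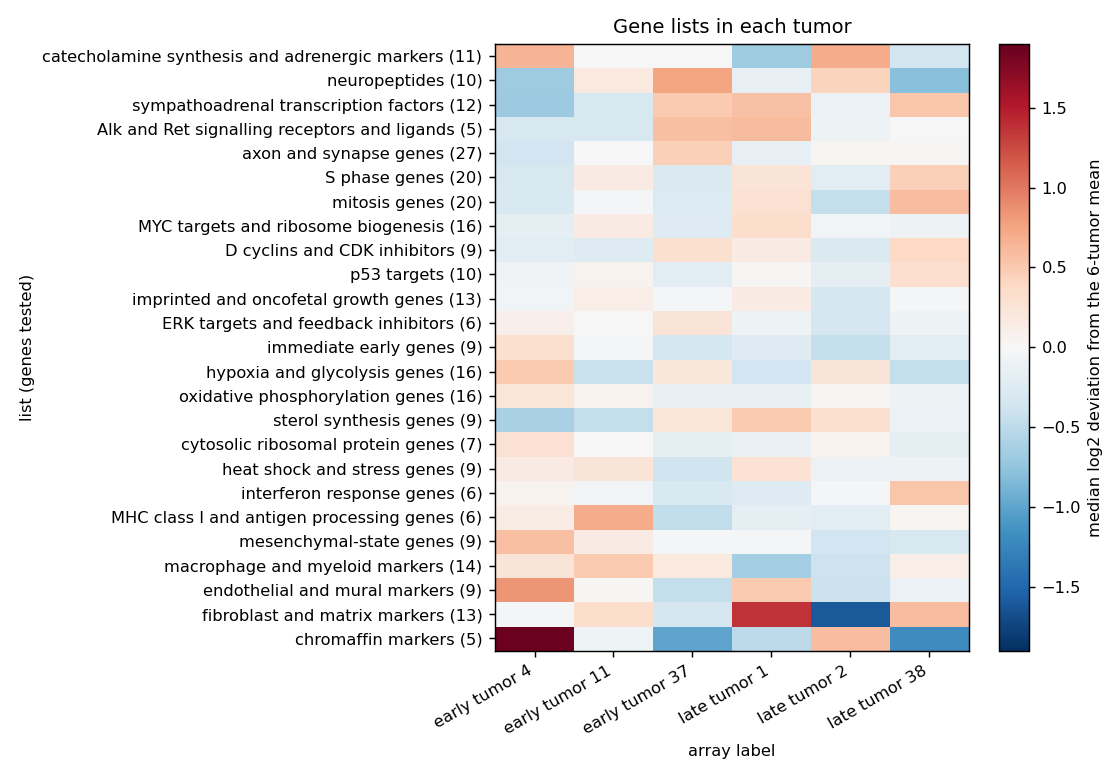
Median log2 deviation from the mean of the 6 tumors for each fixed gene list with at least 5 tested genes (y axis, number tested in brackets) in each tumor (x axis). Tumor 4 has the darkest field, in chromaffin markers at 1.86, late tumors 1 and 2 differ most in fibroblast and matrix markers, at 1.38 and -1.60, and mitosis genes are at 0.29, -0.45 and 0.58 in late tumors 1, 2 and 38.

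Chromosome 3 carried more of the higher rows than any other autosome. Of its 434 tested genes, 57 (13.1%) were higher in late tumors without overlap and 5 lower, beside 4.60% and 3.12% of all rows. The median deviation of its genes from the mean of the 6 tumors was -0.12, -0.07 and -0.12 in early tumors 4, 11 and 37 and 0.03, 0.01 and 0.25 in late tumors 1, 2 and 38. The late values lay above the early ones, although array-CGH listed a gain under tumors 2, 38 and 4 and none under tumor 1. The difference of 0.20 was 0.12 without tumor 38 and 0.25 without tumor 2. The 4 genes of widest gap there were Rrnad1, Snx7, an endosomal sorting nexin, Clk2, a kinase of splicing factors, and Plk4, the kinase that starts centriole duplication. Snx7 was at 4.92, 4.50 and 4.59 in early tumors 4, 11 and 37 and at 5.53, 5.74 and 6.26 in late tumors 1, 2 and 38. Clk2 differed by 0.87 and Plk4 by 0.79, and Plk4 was highest in tumor 38, at 9.47.

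Chromosome 16 was listed as lost under tumors 2 and 38. Its median deviation was -0.05, 0.10 and 0.11 in early tumors 4, 11 and 37 and -0.11, 0.11 and -0.17 in late tumors 1, 2 and 38, so the sides overlapped. The difference of -0.11 was -0.20 without tumor 2, -0.07 without tumor 11 and -0.04 without tumor 38. Of 275 genes 6 were higher and 8 lower without overlap (2.18% and 2.91%), beside 4.60% and 3.12% of all rows. Abat, the transaminase that breaks down GABA, was at 10.46, 9.82 and 10.32 in early tumors 4, 11 and 37. It was at 7.35, 9.46 and 8.60 in late tumors 1, 2 and 38. Tumors 1 and 38, where Abat was lowest, also had the lowest medians of chromosome 16. Tumor 4, with the next lowest median at -0.05, had the highest Abat value. Whether Abat followed the chromosome was not tested. Carhsp1 differed by -0.56, whereas Grik1, a kainate receptor subunit, and Prdm15 differed by 1.18 and 0.70 with late tumors higher without overlap.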

How the data were processed

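Total RNA of each tumor was hybridized to Affymetrix mouse arrays. The authors normalized the arrays by GCRMA with Brainarray annotations and deposited log2 values for 17306 rows and 31 tumors, from 1.31 to 15.46, with array medians of 4.22 to 4.66. The submitters' processing notes name GCRMA, and versions were not given in the sources used here. GCRMA estimates background from probe sequence. Values at the background are compressed, and the size of differences near or across log2 4 is uncertain. Arrays give no counts, and their number limits the precision.

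Values were used as they stand. Rows above log2 4 in at least 3 of the 6 tumors were fitted with limma 3.58.1 in R 4.3.3 (two-sided, Benjamini-Hochberg, threshold 0.05), after the script was tested on simulated data. Symbols came from the platform table (16464 of 17306 rows, 380 tested rows unnamed) and chromosomes from RefSeq. Other settings were filters, normalizations, larger fits, sex as a covariate, moderation, array weights and each tumor left out. Leaving out tumors 2 and 4 together, and the 129S2 reference for chromosomes, were added after the data were seen. Members, lists and rules were chosen with earlier results of these data known. Genes were named if the study follows them, by the largest called differences (up to 12 each way, filled by the widest gap between sides where the upper side averaged log2 6 or more), or as 1 of the 4 members of a list with the largest difference, or of the 4 genes with the widest gap on a chromosome with calls in 2 or more of the tumors. Others were chosen after their values were seen. Figures were drawn with matplotlib 3.10.9.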

Additional observations from a re-analysis of the deposited data

How the results depend on the processing

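In every setting run 0 genes were called, with a smallest adjusted p value from 0.129 (without tumor 11) to 1 (without tumor 1). The rows without overlap depended on how many tumors were compared, by construction: 416 higher and 282 lower with 6, 658 to 1194 and 461 to 980 with any 1 tumor left out, and 1718 and 1432 without tumors 2 and 4. Without a filter 439 rows were lower, and with equal medians 142. No paired analysis was made, because no pairing of late with early tumors was given. Of 70 genes followed through all settings that kept their row, 59 did not change direction, and 11 did in at least 1. Without tumors 2 and 4 these were Ret (-0.05), Chga (0.02), Fos (0.33), Atf3 (0.63) and Adm (0.62), with sex as a covariate Ret (-0.19), Acta1 (0.49) and Mylpf (1.28), and with array weights Fos (0.16), Atf3 (0.08) and Adipoq (-1.61). With 1 tumor left out, the difference ran from -0.18 (without tumor 1) to 0.35 in Ret, from -1.28 to 0.13 (without tumor 1) in Slc18a2, from -1.19 to 0.41 (without tumor 4) in Chga, from -2.23 to 1.44 (without tumor 38) in Chgb, from -2.26 to 0.22 in Fos, from -1.76 to 0.70 in Atf3 and from -2.75 to 1.05 in Adm (each highest without tumor 4), from -3.42 to 1.19 in Acta1 and from -2.01 to 2.09 in Mylpf (both highest without tumor 11), from -0.63 (without tumor 38) to 2.83 in Adipoq, and from -3.02 to 0.53 (without tumor 37) in Fabp7. The cause was not tested.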
